A study of Mus musculus with 16 samples.

Results

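The immunity-related GTPases (IRGs) were measured in primary astrocyte cultures from WT (C57BL/6J) and Nlrx1-/- mouse pups. The 7 members are Igtp, Irgm1, Irgm2, Ifi47, Tgtp1, Tgtp2 and Iigp1, taken by gene symbol from the 16707 genes of the normalized expression table, and all 7 passed its filter on low counts. Brain astrocytes of day 6 pups were selected on ACSA-2 beads. The labels describe a replicate as a set of mice, and litters of 1 genotype served as the replicates. Each of 4 WT and 4 Nlrx1-/- litters gave a well kept in vehicle (water) and a well stimulated with LPS at 500 ng/mL plus IFNγ at 10 ng/mL for 24 h, which makes 16 libraries in 4 conditions. NLRX1 is a mitochondrial NOD-like receptor, and the comparison asks how its loss alters the astrocyte response to inflammatory stimuli. Every stimulated well had both agents, so the part of LPS and the part of IFNγ in a response cannot be told apart.

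IRGs are GTPases of cell-autonomous defence that interferons switch on in mouse cells. They fall into 2 groups by a motif in their nucleotide-binding site. The GMS proteins Irgm1, Irgm2 and Igtp (also called Irgm3) sit on the cell's own membranes and keep the other group in check. The GKS proteins Ifi47 (Irgd), Tgtp1 and Tgtp2 (Irgb6) and Iigp1 (Irga6) are effectors, which load onto the vacuole around an intracellular parasite or bacterium and disrupt it. IFNγ acts through its receptor and the kinases Jak1 and Jak2. Promoters of genes that it switches on often carry GAS elements (gamma-activated sequences) and ISRE elements, and IRF factors such as Irf1 bind the latter.

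On GRCm39 (GENCODE M39) 6 of the 7 genes lie on chromosome 11 in 2 groups. Irgm1 (48752795 to 48763164, minus strand), Tgtp1 (48876154 to 48884999, minus), Tgtp2 (48948021 to 48955033, minus) and Ifi47 (48967412 to 48987813, plus) span 235 kb. Igtp (58089840 to 58098417, plus) and Irgm2 (58090444 to 58113615, plus) lie 9.1 Mb away and overlap each other in the annotation. Iigp1 lies on another chromosome. Tgtp1 and Tgtp2 are near-identical copies, so the split of reads between them is uncertain, and their sum was tested as well.

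The proximal promoters are shown because all 7 members rose under a stimulus that contains IFNγ, and a link between motif and response was not tested. RefSeq promoter windows, from 250 bases before to 50 bases after the start, were found for 6 members and placed on GRCm39 by exact match, and Iigp1 is named only. Both strands were searched for a GAS element, written TTCNNNGAA, and for the core of an ISRE, taken as a GAAA, any 2 bases and a second GAAA. Of 32851 mouse promoter windows of the same length, 8.3% held the GAS letters, 3.4% the ISRE core and 0.45% both. Igtp, Irgm2, Tgtp1 and Tgtp2 each held both, on the sense strand, with the ISRE core 2 bases after the GAS element. The stretches below run 5′ to 3′ on the gene's strand with the matched letters in capitals.
Igtp (chr11:58090331-58090360, plus, bases -51 to -22 from the RefSeq start): agccatTTCTAGGAActGAAACTGAAAgct
Irgm2 (chr11:58105722-58105751, plus, bases -81 to -52): agccatTTCCAGGAActGAAACTGAAAgct
Tgtp1 (chr11:48883138-48883167, minus, bases -94 to -65): agccatTTCCAGGAAtcGAAACTGAAAcct
Tgtp2 (chr11:48955097-48955126, minus, bases -87 to -58): agccatTTCCAGGAAtcGAAACCGAAAcct
Irgm1 (chr11:48762259-48762283, minus, bases -36 to -12): tttcaaGAAATAGAAACCGAAActg
Ifi47 (chr11:48977750-48977774, plus, bases -111 to -87 from the GENCODE canonical start): agtcctTTTCTTTTTCCTGGAAatg

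The Igtp and Irgm2 stretches were identical at 29 of 30 bases, as were those of Tgtp1 and Tgtp2. Irgm2 and Tgtp1, which belong to different groups of the family, were identical at 27 of 30. Irgm1 held 2 overlapping ISRE cores and no match to the GAS letters in its window. The RefSeq window of Ifi47 held neither motif. The window at the GENCODE canonical start of Ifi47, looked at after the first had no match, held 2 GAS matches (the 1 nearer the start is shown) and an ISRE core on the opposite strand that overlaps the GAS shown. Exons of longer GENCODE transcripts run over the stretches of Igtp, Irgm1 and Ifi47 and over 10 bases of that of Tgtp1, so these bases are upstream of the start named and not of every annotated start. These matches describe letters only, and no binding was measured.

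The libraries held 27259420 to 43752903 Salmon-assigned reads (median 35554625). In LPS + IFNγ, Nlrx1 was lower in Nlrx1-/- than in WT astrocytes by 2.19 on the log2 scale (edgeR, adjusted p = 0.00318), and its level was 4.08 to 4.19 log2 CPM in WT against 1.09 to 2.23 in Nlrx1-/-. In vehicle the difference of -1.70 missed the threshold (edgeR, adjusted p = 0.0538). All 9 astrocyte markers were in the filtered table, at a summed level of 5180 to 9820 CPM. Of 8 microglia and macrophage markers 2 were in it, P2ry12 and Cd68, with a summed level of 0.651 to 2.22 CPM in vehicle and 1.3 to 3.62 in LPS + IFNγ, and Aif1, Csf1r, Cx3cr1, Tmem119, Itgam and Ptprc were not. The 3 endothelial markers were not in the table, and 3 fibroblast markers summed to 5.14 to 27.9 CPM. The 4 neuronal markers summed to 13.4 to 19.5 CPM in vehicle and 55.7 to 87.6 in LPS + IFNγ. The largest change among them was that of Tubb3. Its highest level went from 13.57 TPM in vehicle to 92.67 with LPS + IFNγ in WT, and from 14.52 to 82.78 in Nlrx1-/-. Snap25, Rbfox3 and Syt1 reached at most 7.31, 2.1 and 1.03 TPM in any library. The 6 markers of the oligodendrocyte lineage varied with both treatment and genotype, with 475 to 750 CPM in WT vehicle, 177 to 607 in Nlrx1-/- vehicle, 213 to 430 in stimulated WT and 83.4 to 241 in stimulated Nlrx1-/- cultures. Their part in the IRG values was not tested. In these bulk libraries a change in how many cells express a gene and a change per cell cannot be told apart.

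All 7 IRGs rose with LPS + IFNγ in astrocytes of both genotypes. The GMS members started from a measurable level and the GKS members from almost none, and after 24 h the family made up at least 0.811 to 1.07% of all transcripts (TPM), a sum in which Iigp1 is counted too low. In WT the responses ran from 6.05 ± 0.10 (log2 fold change ± SE, n = 4 litters) for Irgm1 to 14.45 ± 0.22 for Tgtp1, with Tgtp2 beyond that because it had 0 reads in every WT vehicle library. For members with almost no vehicle reads this SE is too narrow. Tgtp1 had 10 reads over the WT vehicle group, and DESeq2 gave 14.76 ± 0.85 for it. Among the 16066 genes tested, 23.7% were higher in WT and 25.3% in Nlrx1-/- astrocytes, and 20.2% and 24.2% were lower (edgeR, adjusted p below 0.05). The median log2 response was 12.04 over the members and -0.02 over all genes in WT, and 11.35 and -0.03 in Nlrx1-/-.

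**Figure D1:**
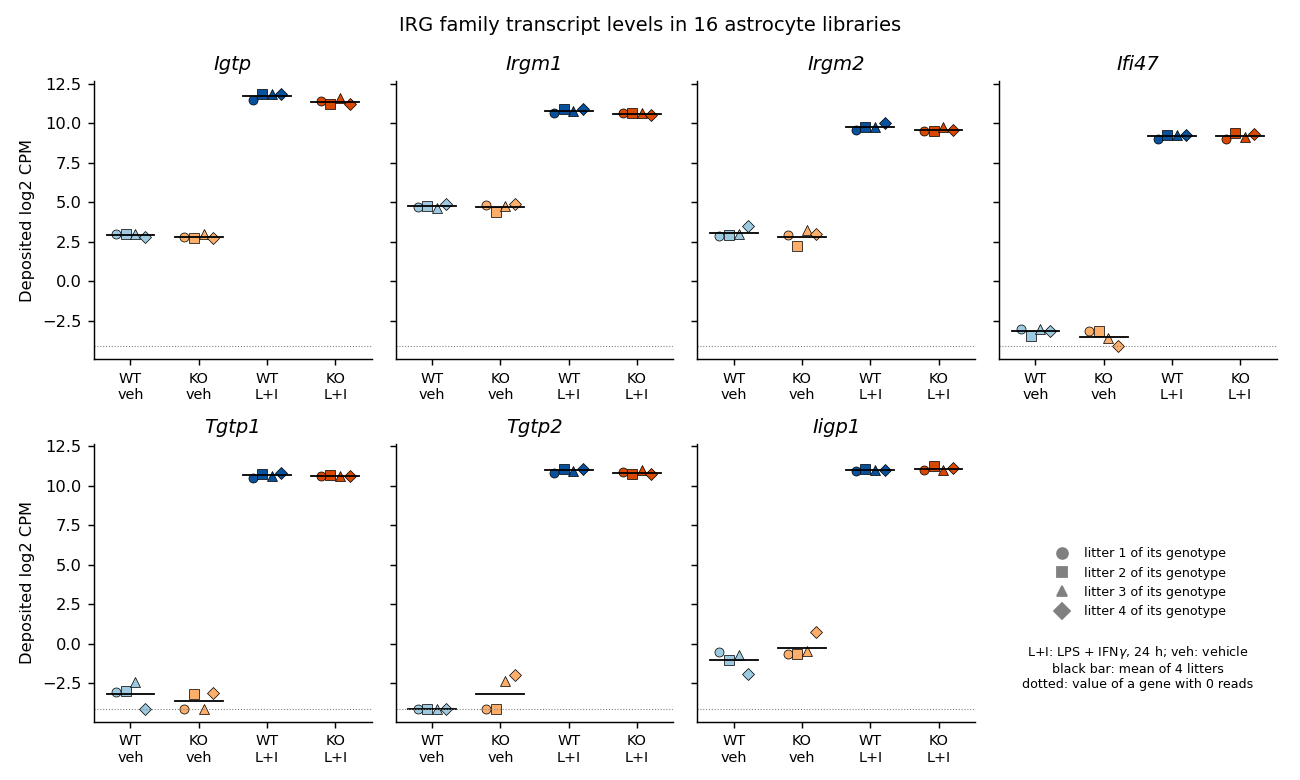
Deposited log2 CPM (y axis) of each IRG gene in the 4 conditions (x axis), 1 point per library, with symbols for the litters of each genotype, a black bar for the mean of 4 litters and a dotted line at the value of a gene with 0 reads. Stimulated libraries (L+I) lie between 8.97 and 11.87, while Igtp, Irgm1 and Irgm2 lie between 2.23 and 4.87 in vehicle (veh) and the other members at or below 0.72.

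Levels per transcript length (TPM) show the size of the change, though the sums are low estimates, since the transcripts used for TPM held 62.8 to 75.8% of the reads of Iigp1 in the stimulated libraries. The 7 members together summed to 41.7 to 47.0 TPM in WT vehicle and 31.5 to 43.4 in Nlrx1-/- vehicle. With LPS + IFNγ they summed to 8996 to 10682 TPM in WT and 8109 to 9549 in Nlrx1-/- astrocytes, which is 0.9 to 1.07% and 0.811 to 0.955% of the total. Every stimulated library of either genotype was far above every vehicle library.

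Igtp was the most abundant member after stimulation. It went from 7.87 to 9.27 TPM in WT vehicle to 2937, 3460, 3539 and 3724 TPM in the 4 stimulated WT litters, which placed it 17th to 25th among 35297 genes. In stimulated Nlrx1-/- litters it was at 2673, 2204, 3127 and 2255 TPM, ranks 26 to 59. Irgm1 was the most abundant member in vehicle (21.5 to 32 TPM over both genotypes) and followed Igtp in stimulated cells, at 1571 to 1793 TPM in WT and 1314 to 1533 in Nlrx1-/-. The lowest Igtp value in any stimulated library exceeded the highest Irgm1 value.

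Tgtp2 (1176 to 1579 TPM over the 8 stimulated libraries) and Tgtp1 (1071 to 1291) came next. Irgm1 was above Tgtp2, and Tgtp2 above Tgtp1, in 8 of 8 stimulated libraries, but the ranges of neighbours overlapped between litters. Ifi47 (634 to 792 TPM) and Irgm2 (377 to 571) were lowest, with Ifi47 higher in 8 of 8. For Iigp1 the TPM of 956 to 1245 is too low, because the transcripts that could be paired with its symbol held 62.8 to 75.8% of the reads behind its normalized level in stimulated libraries, so its place in this order is not given.

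Among the GMS members, Igtp had 7.63 ± 0.498 CPM (SD, n = 4) in WT vehicle and 3470 ± 396 in stimulated WT astrocytes, a response of 8.81 ± 0.10 on the log2 scale (edgeR, adjusted p = 8.89e-13). By litter this response was 8.52, 8.84, 8.81 and 9.07 in WT and 8.60, 8.46, 8.64 and 8.47 in Nlrx1-/-, which overlap. Irgm1, which helps to steer phagosome maturation and autophagy, responded by 5.92, 6.13, 6.17 and 6.00 in WT litters and by 5.82, 6.24, 5.88 and 5.62 in Nlrx1-/-. Its response was the smallest of the 7 in both genotypes, from the highest vehicle level. Irgm2 responded by 6.71, 6.83, 6.78 and 6.54 in WT and by 6.62, 7.28, 6.56 and 6.59 in Nlrx1-/-, where litter 2 stood above the others. That litter also had the lowest Irgm2 level in vehicle, 2.23 log2 CPM against 2.90 to 3.21 in the other Nlrx1-/- litters.

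The GKS effectors were close to absent in vehicle. Ifi47 had 2, 1, 3 and 2 reads in the WT vehicle libraries and 2, 2, 1 and 0 in those of Nlrx1-/-, against 14028 to 23142 and 17695 to 22132 reads with LPS + IFNγ. Pooled over litters and scaled to depth, this is a 9476-fold rise in WT (95% interval 4809 to 21951) and a 16264-fold rise in Nlrx1-/- (6969 to 50092), intervals that cover counting error only and overlap widely. Tgtp1 had 2, 2, 6 and 0 reads in WT vehicle and 0, 2, 0 and 3 in Nlrx1-/- vehicle, and 40373 to 66271 in every stimulated library. Tgtp2 had 0 reads in each WT vehicle library and 0, 0, 5 and 8 in Nlrx1-/- vehicle, and 48253 to 81026 after stimulation. Set against 3 reads over the WT vehicle group, Tgtp2 was at least 87317-fold higher in stimulated WT astrocytes, and the pooled ratio in Nlrx1-/- was 19411 (95% interval 11351 to 36457).

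Iigp1, which acts on the vacuole of Toxoplasma, was the only GKS member with reads in every vehicle library. It had 20, 13, 25 and 8 reads in WT vehicle and 21, 22, 25 and 69 in Nlrx1-/- vehicle. Its response was 11.46, 12.06, 11.74 and 12.91 in WT litters and 11.68, 11.87, 11.47 and 10.39 in Nlrx1-/-, tested by limma on the deposited log2 CPM, in which 24.9% of genes were higher in WT and 26.6% in Nlrx1-/-. WT litter 4 and Nlrx1-/- litter 4, at the 2 ends of this range, also had the lowest and the highest vehicle level.

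**Figure D2:**
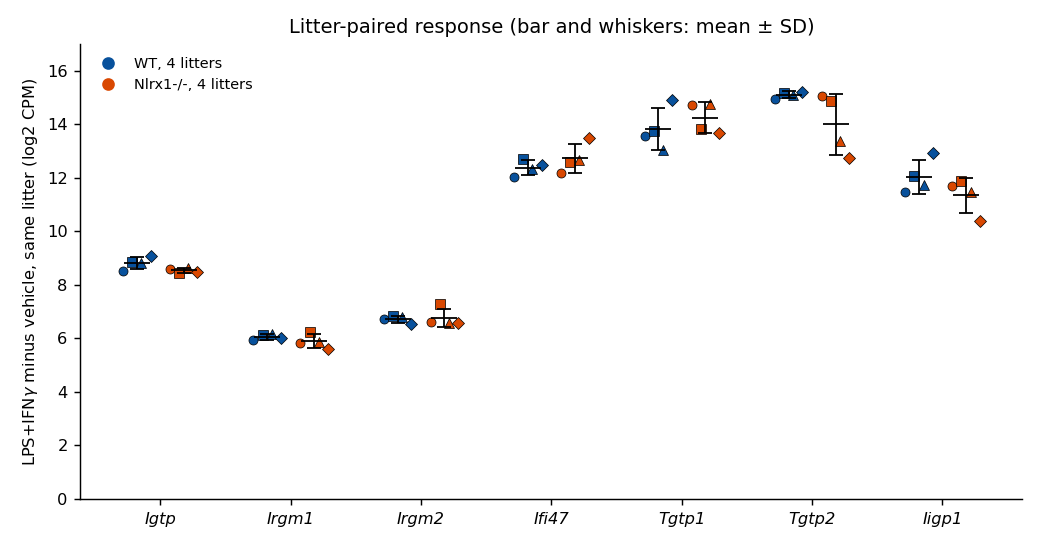
Litter-paired response, LPS + IFNγ minus vehicle in log2 CPM (y axis), for each IRG gene (x axis) in 4 WT and 4 Nlrx1-/- litters, with bars and whiskers for mean ± SD. All responses lie between 5.62 and 15.21, and the 2 genotypes overlap for every member.

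The size of the response was compared between genotypes within the same fit. No member passed (0 of 7), beside 0% of all 16066 genes, of which 15.4% had an unadjusted p below 0.05. Igtp had the smaller response in Nlrx1-/- by 0.28 ± 0.11 on the log2 scale, an unadjusted difference that did not survive correction (edgeR, adjusted p = 0.282). Irgm1 differed by -0.17 ± 0.12 and Irgm2 by 0.03 ± 0.15. For the GKS members the differences were imprecise, since the vehicle level sets them, with 0.72 ± 0.60 for Ifi47, 0.96 ± 0.89 for Tgtp1 and -0.69 ± 0.33 for Iigp1 (limma, adjusted p = 0.326). The Tgtp2 estimate of -4.77 ± 1.79 rests on 0 against 13 vehicle reads, and with Tgtp1 and Tgtp2 summed it was -0.83 ± 0.84.

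In vehicle, no member passed the test between Nlrx1-/- and WT (0 of 7 called, beside 0% of all genes with edgeR). Igtp, at 2.97, 2.98, 3.01 and 2.80 log2 CPM in WT and 2.79, 2.74, 2.97 and 2.74 in Nlrx1-/-, gave -0.14 ± 0.11. Irgm1 gave -0.04 ± 0.10 and Irgm2 -0.22 ± 0.18. DESeq2, run as an alternative, called Tgtp2 higher in Nlrx1-/- (adjusted p = 0.0167), on the 13 reads of 2 litters. Iigp1 was at -0.52, -1.0, -0.73 and -1.89 log2 CPM in WT and -0.66, -0.62, -0.45 and 0.72 in Nlrx1-/-, a difference of 0.78 ± 0.28 that did not pass (limma, adjusted p = 0.142, with 0.00599% of genes called), with overlapping litters.

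In stimulated astrocytes, 1 of the 7 members differed by genotype. Igtp was lower in Nlrx1-/- astrocytes, while the other 6 members did not pass the test. Across all genes, 2.38% were lower, 2.65% were higher and 5.03% differed in either direction in this comparison. Igtp was at 11.49, 11.82, 11.83 and 11.87 log2 CPM in stimulated WT litters and at 11.39, 11.20, 11.61 and 11.21 in Nlrx1-/-. WT litter 1 lay below Nlrx1-/- litter 3, so the groups overlapped. In CPM the means were 3470 ± 396 (SD, n = 4) and 2630 ± 360, and the difference was -0.41 ± 0.10 on the log2 scale (edgeR, adjusted p = 0.0422). The call was lost when any 1 of 6 litters was left out (WT litters 2, 3 and 4 and Nlrx1-/- litters 1, 2 and 4, adjusted p = 0.0657 to 0.15 with edgeR), while the estimate stayed between -0.51 and -0.36 over all 8 such fits. With the 8 stimulated libraries alone the adjusted p was 0.0851.

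Irgm1 was at 10.65, 10.87, 10.79 and 10.87 log2 CPM in stimulated WT and at 10.64, 10.62, 10.64 and 10.49 in Nlrx1-/- litters. No Nlrx1-/- litter reached the lowest WT litter, though those nearest differed by about 0.01, and 6.23% of all genes had no overlap in this direction. The difference of -0.22 ± 0.09 did not pass correction (edgeR, adjusted p = 0.145). Irgm2 was at 9.54 to 10.02 in WT and 9.51 to 9.78 in Nlrx1-/-, a difference of -0.19 ± 0.17. The GKS members gave differences of 0.02 ± 0.11 for Ifi47, -0.06 ± 0.14 for Tgtp1, -0.15 ± 0.17 for Tgtp2 and 0.10 ± 0.28 for Iigp1 (limma, by which 8.8% of genes differed), and none passed.

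**Figure D3:**
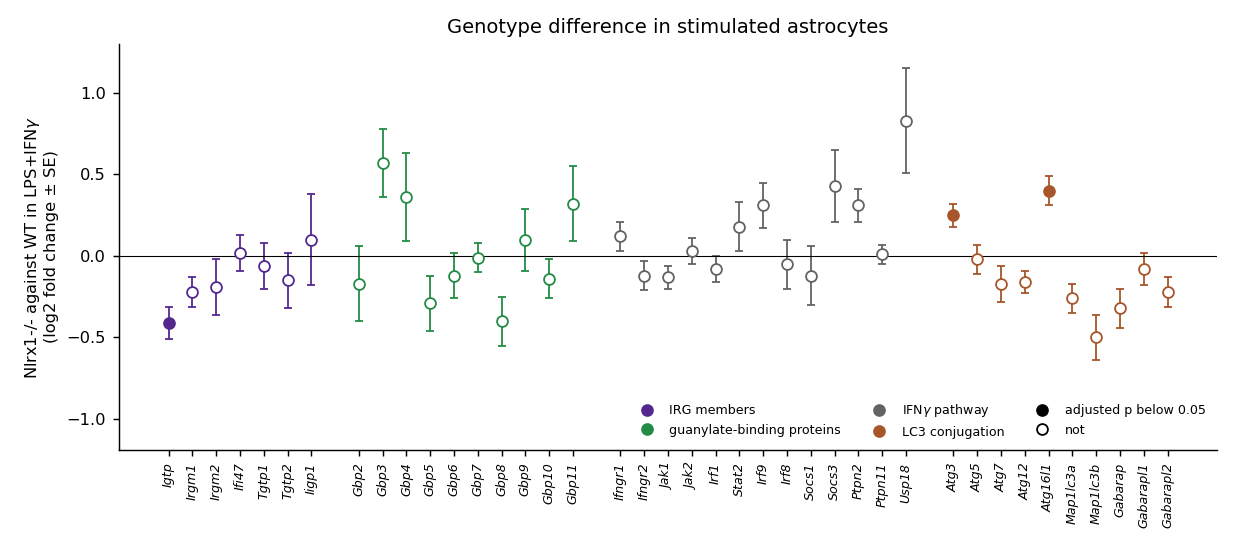
Log2 fold change ± SE of Nlrx1-/- against WT in LPS + IFNγ (y axis) for the IRG members, guanylate-binding proteins, IFNγ pathway genes and LC3 conjugation genes (x axis), from edgeR with limma for Iigp1, with filled points for adjusted p below 0.05. Igtp, Atg3 and Atg16l1 are filled, and the other IRG members lie between -0.22 and 0.10.

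A comparison within each library does not depend on its depth or scaling. In each stimulated library the log2 CPM of a GMS member was set against the mean log2 CPM of the 4 GKS members. Igtp exceeded that mean by 1.19, 1.29, 1.37 and 1.32 in WT and by 1.00, 0.68, 1.17 and 0.77 in Nlrx1-/- litters. Irgm1 exceeded it by 0.33 to 0.34 in the 4 WT litters and by 0.04 to 0.25 in Nlrx1-/-. The groups did not overlap for Igtp and Irgm1, while Irgm2 lay 0.81 to 0.52 below the mean in WT and 1.01 to 0.66 below it in Nlrx1-/-, with overlap. On the same measure 6.02% of 16703 genes had every Nlrx1-/- litter below every WT litter, and for Igtp the nearest litters were at 1.17 and 1.19. These values use the same libraries as the genotype comparison and were given no test.

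**Figure D4:**
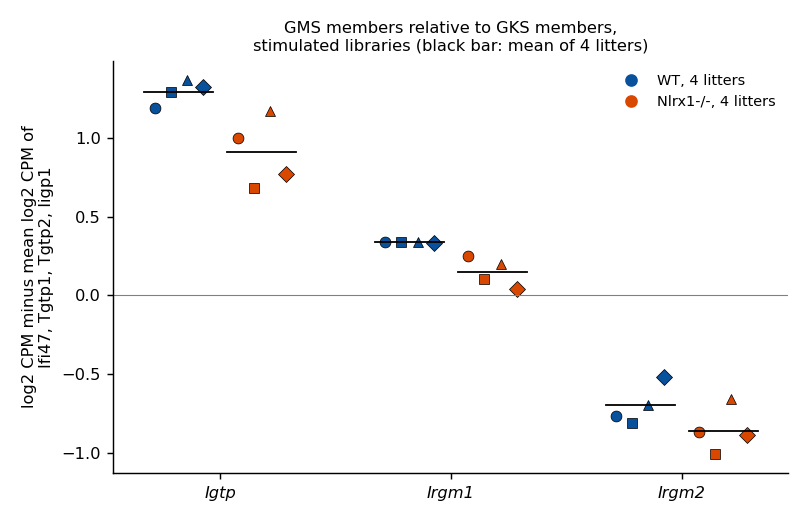
Log2 CPM of Igtp, Irgm1 and Irgm2 minus the mean log2 CPM of Ifi47, Tgtp1, Tgtp2 and Iigp1 in the same stimulated library (y axis), for 4 WT and 4 Nlrx1-/- litters, with a bar at each mean. For Igtp the WT litters lie between 1.19 and 1.37 and the Nlrx1-/- litters between 0.68 and 1.17, and Irgm2 overlaps.

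The shares of the Irgm1 transcripts were compared as well. A 2102-base RefSeq transcript held 67.9, 76.8, 81.4 and 82.4% of Irgm1 reads in WT vehicle and 56.1, 59.7, 62.9 and 60.6% after stimulation, lower in 4 of 4 litters. In Nlrx1-/- it went from 78.9, 80.6, 82.7 and 69.3% to 52.7, 52.5, 54.1 and 53.8%, again lower in 4 of 4. In stimulated cells the genotypes did not overlap, with means of 59.8 ± 2.8% and 53.3 ± 0.8% (SD, n = 4, exact two-sided permutation p = 0.0286, the smallest that 4 against 4 allows, and 0.0572 adjusted over 4 such comparisons, which does not pass). Of 15427 transcripts with at least 10% of their gene's reads, in genes with at least 100 reads in each stimulated library, 1.99% had shares that were lower in Nlrx1-/- without overlap. In vehicle they were at 77.1 ± 6.6% and 77.9 ± 5.9% (exact permutation p = 0.800). A 2321-base transcript took up most of the difference, at 36.0 ± 2.8% in stimulated WT and 42.0 ± 1.4% in stimulated Nlrx1-/- astrocytes. Its exact permutation p was 0.0286 there and 0.686 in vehicle. These tests were not among the 4 adjusted comparisons, so the adjusted values do not cover every share tested. Shares are Salmon estimates from reads that several transcripts share, and vehicle shares rest on 761 to 1251 reads. Of the other 2 transcript shares compared, the main Iigp1 transcript held 75.4 ± 4.5 and 77.3 ± 3.5% of paired reads in stimulated cells (exact permutation p = 0.571), and that of Ifi47 held 99.7% or more in every stimulated library, with 99.8% in WT and 99.9% in Nlrx1-/- on average (exact permutation p = 0.0286, 0.0572 adjusted, which does not pass).

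**Figure D5:**
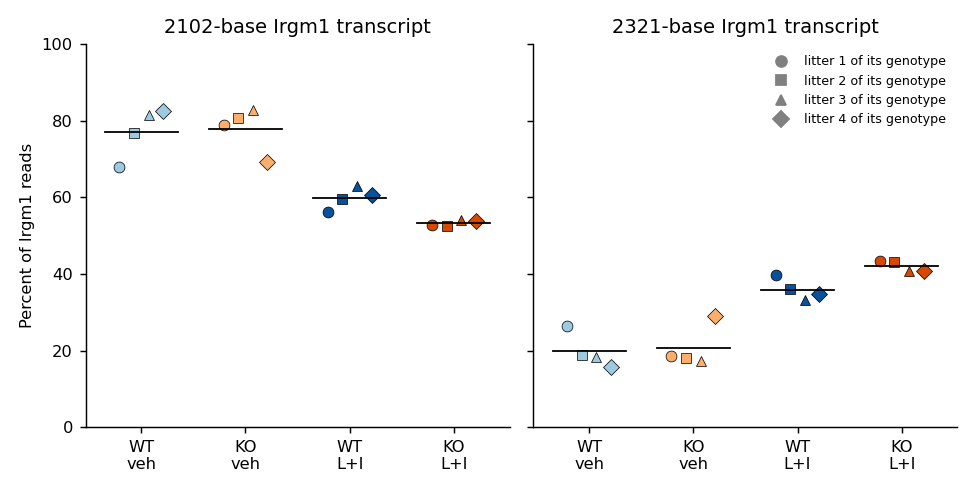
Percent of Irgm1 reads assigned to the 2102-base and the 2321-base transcript (y axis) in the 4 conditions (x axis), 1 point per library and a bar at each mean. The shorter transcript lies between 67.9 and 82.7% in vehicle (veh), between 56.1 and 62.9% in stimulated WT and between 52.5 and 54.1% in stimulated Nlrx1-/- astrocytes.

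The other IRG genes of the mouse genome followed the members. Of 10 such genes 9 were tested, and 8 rose and 1 fell in each genotype, with 0 called between genotypes in vehicle or LPS + IFNγ. Across all genes 23.7% rose and 20.2% fell in WT, and 25.3% and 24.2% in Nlrx1-/-. Between genotypes 0% of all genes were called in vehicle and 5.03% in LPS + IFNγ (edgeR). The listed gene that fell was Irgq, a distant relative, by 0.40 ± 0.06 on the log2 scale in WT and by 0.28 ± 0.06 in Nlrx1-/- (edgeR). Gm12250 (Irgb10), a GKS effector, rose from -2.44 to -1.70 log2 CPM in WT vehicle to 8.74 to 8.99, and reached 8.75 to 9.25 in Nlrx1-/-. The tandem gene 9930111J21Rik1 had no reads in 8 of 8 vehicle libraries and 5.83 to 6.45 log2 CPM in stimulated WT against 5.51 to 5.85 in Nlrx1-/- litters (-0.43 ± 0.15, edgeR, adjusted p = 0.0949). Gm12185, whose annotation overlaps Tgtp1, reached 6.82 to 7.23 in WT and 6.88 to 6.98 in Nlrx1-/-.

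Guanylate-binding proteins, larger GTPases that act beside the IRGs at the same vacuoles, rose for 10 of 10 genes tested in both genotypes (of 11 listed). Among all genes 23.7% rose in WT and 25.3% in Nlrx1-/- (edgeR). Gbp10 reached 10.78 to 11.26 log2 CPM in stimulated WT and 10.78 to 10.90 in Nlrx1-/-, from 0 reads in every WT vehicle library. Gbp4 went from -2.28 to -1.24 in WT vehicle to 10.47 to 10.79 (12.65 ± 0.36, edgeR), and Gbp8 to 8.61 to 9.11. None of the 10 passed between genotypes in LPS + IFNγ, where 2 had an unadjusted p below 0.05 (edgeR), beside 28.4% of all 16066 genes.

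The IFNγ pathway list runs from the receptor chains and kinases to factors and a feedback inhibitor that are themselves induced. Of its 14 genes 11 rose and 1 fell in each genotype, beside 23.7% of all genes higher and 20.2% lower in WT. In Nlrx1-/- these shares were 25.3% and 24.2% (edgeR). The receptor chain Ifngr2 was the gene that fell, by 0.19 ± 0.07 on the log2 scale in WT and by 0.18 ± 0.07 in Nlrx1-/-. When single litters were left out, its call was kept in 4 of 8 fits in WT and 1 of 8 in Nlrx1-/- (edgeR, adjusted p up to 0.126 and 0.21), and limma did not call it in Nlrx1-/- (adjusted p = 0.061). The other chain, Ifngr1, gave -0.17 ± 0.07 and did not pass (edgeR, adjusted p = 0.0649). The kinases Jak1 and Jak2 rose by 0.30 ± 0.05 and 0.81 ± 0.06 in WT. The factors Irf1 and Irf8 rose by 5.80 ± 0.10 and 7.92 ± 0.20 on the log2 scale in WT, and the feedback inhibitor Socs1 by 6.22 ± 0.19. Between genotypes 0 of 14 were called in either treatment, beside 0% of all genes in vehicle and 5.03% in LPS + IFNγ (edgeR). In LPS + IFNγ 4 of the 14 had an unadjusted p below 0.05 (edgeR), as did 28.4% of all 16066 genes. Irf1, at 9.34 to 9.48 log2 CPM in stimulated WT and 9.30 to 9.40 in Nlrx1-/- litters, gave -0.08 ± 0.08.

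The LC3 conjugation genes, whose products help the GKS proteins to reach the vacuole, gave no such rise. Of 10 genes 0 rose and 1 fell in WT with edgeR, which was Map1lc3b, by 0.47 ± 0.07. Across all genes 23.7% were higher and 20.2% lower in WT. In Nlrx1-/- 2 of the 10 rose and 3 fell, near the 25.3% and 24.2% of all genes. In WT, limma on the deposited log2 CPM also called Gabarapl1 higher (0.21, adjusted p = 0.0342) and Atg16l1 lower (-0.21, adjusted p = 0.0405). In stimulated cells 2 were higher in Nlrx1-/-, beside 2.65% of all genes. They were Atg16l1 by 0.40 ± 0.09 and Atg3 by 0.25 ± 0.07 (edgeR, adjusted p = 0.0396 and 0.0484), both named after their values were seen. The median of the list was -0.16. Unadjusted, 7 of the 10 had p below 0.05 (edgeR), beside 28.4% of all 16066 genes. Apart from Atg16l1 and Atg3 these were lower in Nlrx1-/-, namely Map1lc3b, Gabarap (-0.32), Map1lc3a (-0.26), Gabarapl2 (-0.22) and Atg12 (-0.16). Atg16l1, which guides LC3 conjugation to membranes, was at 4.12 to 4.47 log2 CPM in WT and 4.53 to 4.89 in Nlrx1-/- litters, which do not overlap (7.09% of all genes had none in this direction). Leaving out single litters kept the Atg16l1 call in 3 of 8 fits and that of Atg3, the enzyme that hands LC3 to lipid, in 2 of 8, with edgeR adjusted p up to 0.15 and 0.158. Map1lc3b, which encodes LC3B, gave -0.50 ± 0.14 between genotypes in stimulated cells (edgeR, adjusted p = 0.0526). It did not pass there but did with limma (-0.49, adjusted p = 0.0442), so its call depends on the method.

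By pattern over the 16 libraries, genes most like the mean of the members were Irf1 (Pearson r = 1.000), Psme1, Apol6 and Psmb9 (0.999 each), of 12672 genes compared. Among those genes 985 had r above 0.9. With the mean of each condition taken away, the nearest genes were Fam160a2 (r = 0.824), Recql5 (0.817), Ifi27 (0.797), Fam189b (0.796) and Tsga10 (0.788). On that scale r against the mean of the other members ran from -0.639 for Ifi47 to 0.611 for Iigp1. The GKS vehicle levels that enter it rest on few reads near the floor. For Tgtp2 the SD was 1.13 log2 CPM in Nlrx1-/- vehicle and 0.0 in WT vehicle, where every litter was at the floor. In each stimulated group it was 0.12. How far counting noise sets these r values and the nearest genes was not tested. All points share library depth and litter, and these r values are descriptions.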

How the data were processed

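Primary astrocyte RNA of 16 poly-A, unstranded libraries was analysed, grouped by the sample labels. The authors quantified reads with Salmon 1.7.0 on GRCm39 RefSeq transcripts and deposited expected counts and TPM for each transcript. The CPM signal the authors deposited comes from tximport and limma-voom (limma 3.58.1) with TMM scaling, and the deposited log2 values are its log2 with a small prior, so that 0 reads read -4.13. The CPM table held 16707 genes after the authors' filter on low counts.

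Here each gene's expected count was the sum over its transcripts, of which 106440 of 129698 could be paired with a symbol by accession (96.7 to 97.3% of reads per library), which gave 35297 genes, and were rounded. edgeR 4.0.16 quasi-likelihood tests (R 4.3.3) used TMM, length offsets and filterByExpr (minimum count 10), leaving 16066 genes, with Benjamini-Hochberg adjustment over all of them and a threshold of 0.05. Responses and their difference between genotypes were fitted with litter as a block within genotype, as in the study's formula. Nlrx1-/- against WT was fitted over the 4 conditions without litter terms, since each litter has 1 genotype. The labels number the replicates, and the study's formula calls a replicate a litter, so wells of 1 genotype with the same number were paired. The deviations of paired wells from their condition means correlated at r = 0.06 to 0.32, against a median of -0.04 for wells of different litters. Because paired transcripts held 0.0 to 75.8% of the Iigp1 reads, its values come from limma (trend) on the deposited log2 CPM, by a rule set for shortfalls above 1 log2 unit. SE is the estimate divided by the root of its F or by its moderated t. Where a condition has almost no reads, the SE from F can be too small. Reads per litter and pooled ratios (exact 95% Poisson-based intervals, zero groups set to 3 reads) use whole reads recovered from the deposited CPM. Tests were tried on simulated data with known changes of 1 log2 unit. Each simulated gene had the same mean in all conditions before the change. Responses as large as those of the GKS members, from almost no vehicle reads, were thus not covered. All members were named, with the 3 largest called WT changes of each list and a fixed set of pathway genes. The members and lists were chosen with earlier results of these data known. A gene of the IFNγ pathway list is not reported by name here. Alternatives were DESeq2 1.42.0, limma-voom, limma on log2(CPM + 1), RLE scaling, no length offsets, no filter, Tgtp1 and Tgtp2 summed, a threshold of 0.01, the switched block, single treatments, each litter left out and, chosen after seeing the data, edgeR on the recovered reads.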

Additional observations from a re-analysis of the deposited data

Results flagged for a closer look

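With 42 groups of 4 tested for a single library far from the other 3, chance alone flags about 5% of groups. Here 5 of the 42 groups were flagged, a larger share. The groups are not independent, since members share libraries and responses are differences of the levels tested. The Igtp level of WT litter 1 in LPS + IFNγ, 11.49 log2 CPM, lay below the other 3 WT litters (11.82 to 11.87). The Ifi47 level of the same library, 8.97, lay below 9.26 to 9.28. The Irgm1 level of Nlrx1-/- litter 4 in LPS + IFNγ, 10.49, lay below 10.62 to 10.64. The Irgm2 response of Nlrx1-/- litter 2, 7.28, lay above 6.56 to 6.62. The Iigp1 vehicle level of Nlrx1-/- litter 4, 0.72, lay above -0.66 to -0.45. Without WT litter 1 the Igtp difference between genotypes in LPS + IFNγ was -0.51 and kept its call. Their causes were not tested.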

How the results depend on the processing

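Over all alternatives run, the 7 members stayed called higher in both genotypes, and none was called for the difference of the responses. Of 676 gene values over the alternatives 658 kept direction and call. Iigp1 was not recomputed with DESeq2, limma-voom, RLE scaling, no length offsets, no filter or the Tgtp sum. There its main limma value was carried over, so its agreement in those settings was fixed in advance and says nothing about them. In LPS + IFNγ the members called lower in Nlrx1-/- numbered 0 at a threshold of 0.01 and with 8 libraries, and 0 to 1 when single litters were left out, where 1 is the main value. In vehicle DESeq2 called 1 member, Tgtp2 (4.00). Direction turned for the summed Tgtp pair (-0.83 for the response difference, 0.72 in vehicle), and when single litters were left out for Irgm2 (response difference -0.12 to 0.09), Irgm1 (vehicle -0.09 to 0.06) and Ifi47 (LPS + IFNγ -0.05 to 0.08), none of them called. Without the litter block, 7 members were called in each genotype and 0 for the difference. With the replicate number as a block between genotypes, a number the genotypes only share, Igtp gave -0.42 (edgeR, adjusted p = 0.022) in LPS + IFNγ, 1 member was called there and 0 in vehicle, and 2206 in place of 808 genes. Over all genes that count was 1471 with limma, 2385 with DESeq2, 387 with limma-voom, 552 without a filter, 0 with 8 libraries and 1 to 3333 without single litters. In vehicle it was 0 against 740 with DESeq2, and for the response difference 0 against 305. Without Nlrx1-/- litter 3 these were 1310 and 317. Few vehicle reads limit every GKS fold change.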
